A study of Mus musculus with 10 samples.

Results

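Immediate early response genes are genes whose RNA rises within minutes of a stimulus without new protein synthesis, and 10 of them are described here in the livers of aged mice with and without hepatocyte Cd44 knockout. They are Egr1, Fos, Jun, Junb, Jund, Ier2, Dusp1, Zfp36, Btg2 and Myc, taken by symbol from a table of 24537 gene symbols. All 10 were present, and all 10 passed the filter on low counts that left 13909 genes for testing. They were picked as a group because Egr1 was lower in the knockout livers than in the old control livers. Values from that contrast are therefore given as a description, with no test, and so is every Egr1 difference that uses only one of those arms.

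RNA was sequenced from 10 whole-liver samples of male mice. The design text describes an AAV8 vector (an adeno-associated virus that reaches hepatocytes well) with Staphylococcus aureus Cas9 behind the hepatocyte promoter TBG and a Cd44 guide RNA behind U6. Young controls (3 livers, aged 9 months, virus given at 7 months) and old controls (3 livers, aged 25 months, virus given at 23 months) are labelled Rosa26 knockouts, Rosa26 being a locus commonly cut as a neutral site. Their vector is not described apart from the Cd44 one. Old knockouts (4 livers, aged 25 months, virus given at 23 months) had a guide to Cd44, which encodes a receptor for hyaluronan. Knockout livers 1 and 2 had guide 4, and knockout livers 3 and 4 had guide 2. TBG acts in hepatocytes, while the RNA came from all cells of the liver. Liver numbers only name a library. The labels do not say that the libraries are from separate animals. P-values therefore set a difference against the spread between libraries, which may be technical.

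Growth factor receptors and stress kinases act through the ERK, JNK and p38 kinases on factors already bound at immediate early promoters. The main ones are serum response factor, which binds the CArG box, and CREB, which binds the cyclic AMP response element (CRE). Egr1 is a zinc finger factor, and Fos and the 3 Jun proteins pair with each other as AP-1. Dusp1, a phosphatase of JNK, p38 and ERK, and Zfp36, which speeds the decay of AU-rich mRNAs, limit the response that induced them. In liver these genes are known for their fast rise after partial hepatectomy, feeding signals, cytokines and handling of the tissue.

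Upstream sequence was matched by symbol in RefSeq promoters of build GRCm38.p6 for 7 of the 10 members; Egr1, Ier2 and Myc had no entry. The 250 bases before each start were searched on both strands for the CArG box, the CRE (TGACGTCA), its core (TGACG, which also lies inside each CRE), the AP-1 site (TGANTCA), the STAT site (TTCNNNGAA) and the EGR site (GCGNGGGCG). The windows below run 5′ to 3′ on the gene's strand, with every match in capitals. They are shown for every member with a promoter entry that held at least 1 match. Sequence beyond these 250 bases was not searched, so an element further upstream would be missed.
Zfp36, chr7:28379229-28379348, minus strand, bases -120 to -1: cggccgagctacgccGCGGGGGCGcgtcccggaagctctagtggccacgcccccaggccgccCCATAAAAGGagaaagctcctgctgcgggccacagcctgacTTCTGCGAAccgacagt
Fos, chr12:85473746-85473843, plus strand, bases -144 to -47: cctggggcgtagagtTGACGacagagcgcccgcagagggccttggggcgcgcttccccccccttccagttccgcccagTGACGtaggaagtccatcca
Dusp1, chr17:26508593-26508678, minus strand, bases -206 to -121: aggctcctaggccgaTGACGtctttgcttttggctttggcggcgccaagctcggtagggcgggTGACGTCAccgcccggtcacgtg
Btg2, chr1:134079263-134079336, minus strand, bases -181 to -108: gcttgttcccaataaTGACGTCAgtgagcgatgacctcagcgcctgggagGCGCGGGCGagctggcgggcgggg
Junb, chr8:84978835-84978869, minus strand, bases -121 to -87: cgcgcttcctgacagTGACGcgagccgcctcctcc

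Zfp36 held a CArG box at -58 to -49, a STAT site at -17 to -9 and an EGR site at -105 to -97. A full CRE stood at -166 to -159 in Btg2 and at -143 to -136 in Dusp1, and Btg2 also held an EGR site at -131 to -123. Dusp1 had a further CRE core at -191 to -187. Fos had 2 CRE cores, at -129 to -125 and at -66 to -62, and Junb had 1 at -106 to -102. The Jun and Jund windows held none of the motifs. Among all 32851 promoters of the table, 1.47% held a CArG box, 1.55% a CRE, 17.8% a CRE core, 6.75% an AP-1 site, 7.02% a STAT site and 4.7% an EGR site. Among the 7 member promoters the counts were 1, 2, 4, 0, 1 and 2 in that order. A match describes the letters only, and none of these data measured binding.

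Total counts lay between 15821198 and 21710228 per liver, so 3 counts equal 0.138 to 0.19 CPM, the usual per-library scaling of read counts, here with edgeR's trimmed mean of M values (TMM) factors. Such floors hold for counting error alone. Egr1 had between 114 and 1439 reads per liver, and Fos, the least abundant member, had between 23 and 86. Old control liver 3 stood apart on the second principal component of log2 CPM (-48.0 against -23.4 to 33.2 in the other 9 livers), and its library name lies outside the run of the others. The targeted gene, Cd44, had 14.2, 30.0 and 25.9 CPM in old control livers 1 to 3 and 18.9, 29.0, 17.6 and 13.1 CPM in knockout livers 1 to 4. The libraries labelled knockout were thus not lower in whole-liver Cd44 RNA than the old controls beyond their spread (log2 fold change -0.25, SE 0.30), so directions of the knockout comparison rest on the labels.

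Egr1 (chromosome 18, 34861207 to 34864956 on GRCm38, plus strand, 3 exons) was high in the old control livers and low in the others. Young livers 1 to 3 had 30.3, 26.6 and 7.73 CPM. Old control livers 1 to 3 had 63.7, 50.1 and 68.6 CPM. Knockout livers 1 to 4 had 6.62, 17.8, 18.6 and 16.9 CPM. All 3 old controls lay above every other liver, while young and knockout livers overlapped. The means were 21.5 ± 12.1 (SD, n = 3), 60.8 ± 9.59 (SD, n = 3) and 15.0 ± 5.62 CPM (SD, n = 4). The log2 fold change was -2.02 (SE 0.41) between knockout and old control, a 4.05-fold lower level, and it lay between -2.30 and -1.77 over 17 alternative fits. It was 1.50 (SE 0.45) between old control and young and -0.52 (SE 0.42) between knockout and young. These differences share their livers and are what the gene was picked for. Of the 13909 genes tested, 305 (2.19%) likewise had all 3 old controls above every other liver, and of the 10 members Egr1 was the only one.

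**Figure D1:**
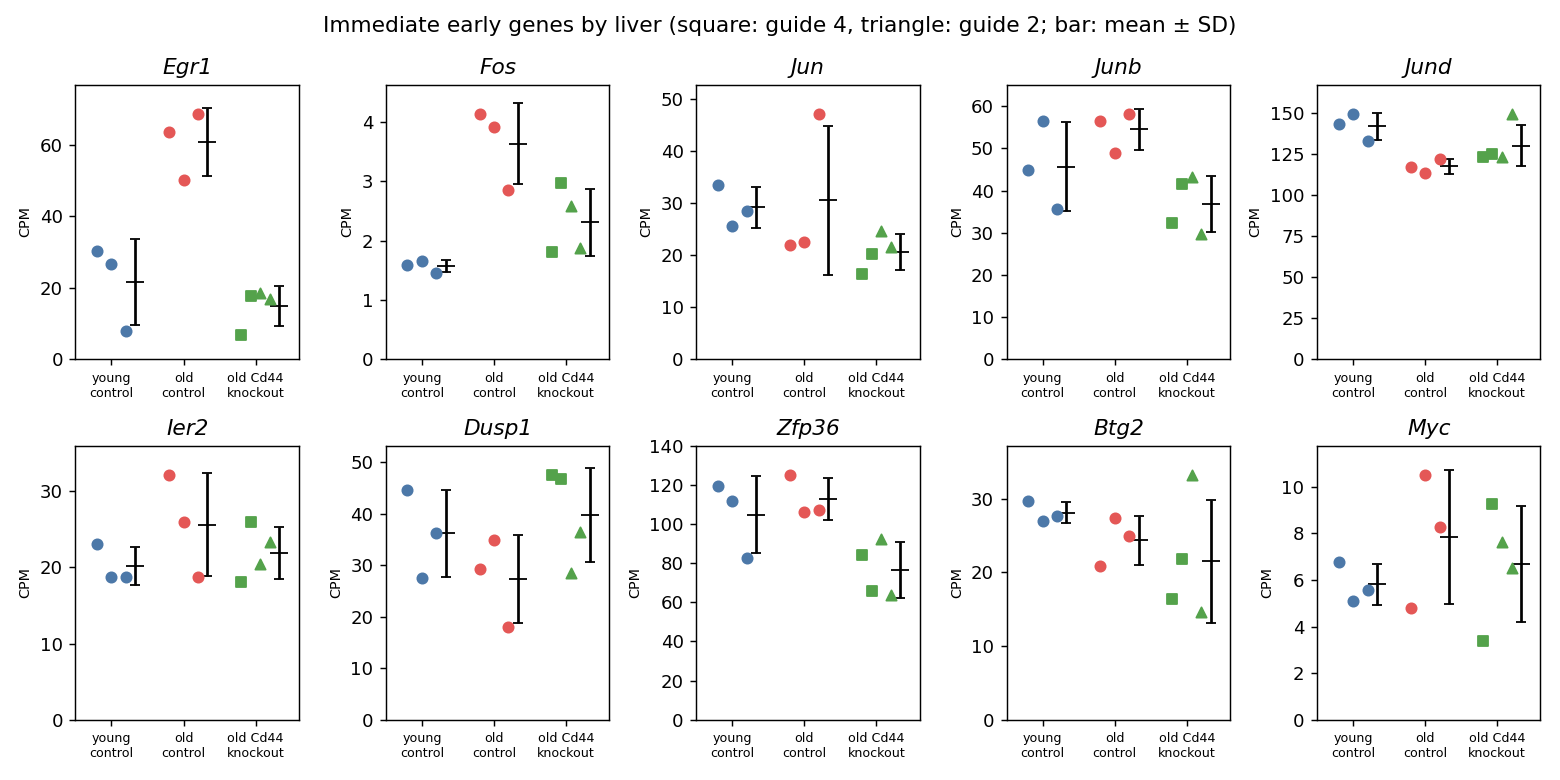
CPM of each of the 10 genes (y axis, linear, from 0) in every liver, by group (x axis); circles are Rosa26 livers, squares guide 4 and triangles guide 2 knockout livers, and the bars give mean ± SD. Egr1 lies at 50.1 to 68.6 CPM in the old controls and at 30.3 CPM or less in every other liver, while most other genes overlap between groups.

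Of 9 marker lists of non-hepatocyte cells, 2 (endothelium and stellate cells) had, like Egr1, all 3 old controls above every other liver. The summed level of 10 liver endothelium markers was 184 to 254 CPM in young, 370.1 to 416 CPM in old control and 250.1 to 315 CPM in knockout livers. A list of 8 stellate cell markers had sums of 149.7 to 276, 305 to 465 and 255 to 301 CPM in the same order. The sums of 8 Kupffer cell markers were 222 to 318, 424 to 1385 and 372 to 684 CPM, and here knockout and old control livers overlapped. They also overlapped in the other 6 lists. B cell sums were 3.42 to 7.71, 8.01 to 33.2 and 20.5 to 28.3 CPM, and the mean was not lower in knockout than in old control livers (24.1 and 21.7 CPM). Cholangiocyte sums were 48.9 to 105, 93.5 to 133 and 80.8 to 165 CPM, and megakaryocyte and erythroid sums were 730.3 to 776, 554 to 1104 and 637 to 1388 CPM. The sums of the list of monocytes and monocyte-derived macrophages, which shares Spp1 with the cholangiocyte list, were 81.7 to 161, 209.9 to 578 and 184 to 285 CPM. The neutrophil sums were 3.74 to 9.97, 14.6 to 298 and 7.96 to 23.4 CPM. Old control liver 2 alone had the upper values of its group: 298 CPM for neutrophils (16.3 and 14.6 CPM in livers 1 and 3) and 578 CPM for monocytes and macrophages (209.9 and 228 CPM). For Kupffer cells it had 1385 CPM (424 and 869 CPM in livers 1 and 3). No endothelium, stellate or Kupffer cell marker was at 0 in any liver. The part of these cells in the Egr1 difference was not tested. In whole liver, fewer cells of a type and less RNA per cell cannot be told apart.

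**Figure D2:**
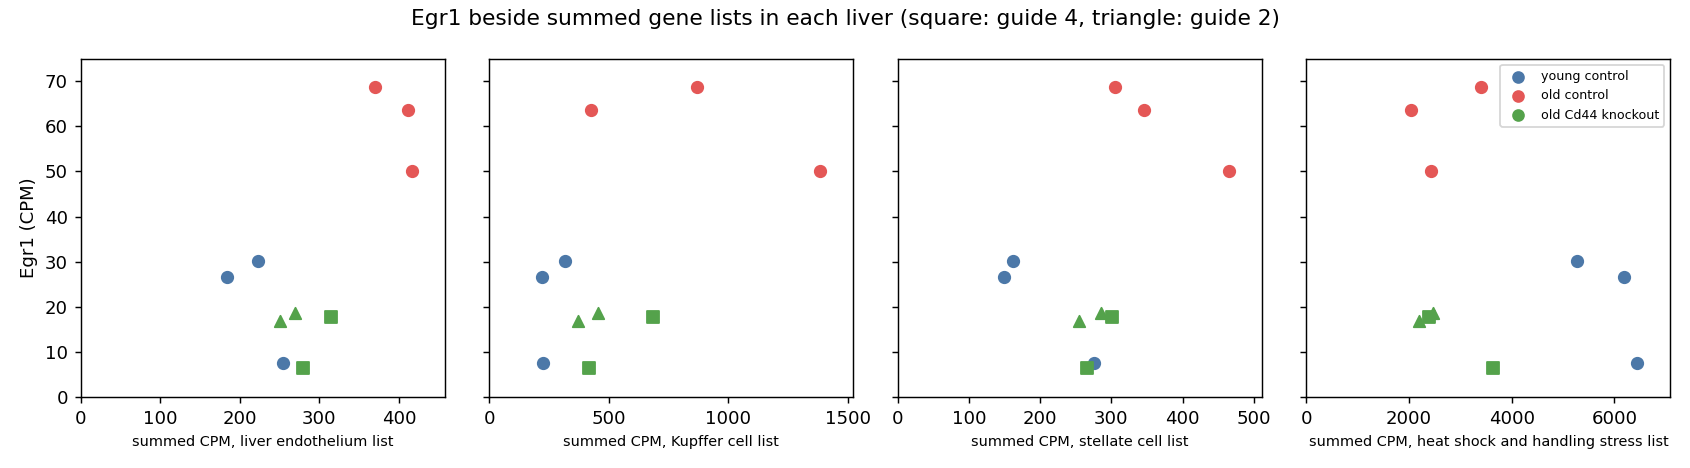
Egr1 (CPM, y axis) against the summed CPM of 4 gene lists (x axes) in each of the 10 livers, coloured by group, with squares for guide 4 and triangles for guide 2. Old control livers sit at the top right of the endothelium panel (370.1 CPM or more). In the heat shock panel they have 2040.4 to 3409 CPM, which overlaps the knockout livers (2192 to 3633 CPM). The 3 young livers have 5266 CPM or more there.

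Fos, Jun, Junb and Jund, the AP-1 subunits, did not share 1 pattern. Fos (chromosome 12, 85473890 to 85477274, plus strand, 4 exons), the inducible subunit that cannot pair with itself, had 1.59, 1.65 and 1.46 CPM in young livers 1 to 3. It had 4.13, 3.92 and 2.86 CPM in old control livers 1 to 3 and 1.80, 2.97, 2.59 and 1.87 CPM in knockout livers 1 to 4. The young livers were lowest, with no overlap with either old group, and only old control liver 3 fell within the knockout range. Of all genes, 19.7% lay above the young livers without overlap in the old controls and 21.1% in the knockout livers. The share of genes above in both was not counted. Fos rose with age 2.32-fold, or 1.21 on the log2 scale (SE 0.27; edgeR quasi-likelihood test, adjusted p 0.0138). Its adjusted p lay between 0.00161 and 0.0554 over the alternatives, and it missed the threshold of 0.05 only without young liver 2. Knockout livers differed from old controls by -0.65 (SE 0.24) on that scale, and from young livers by 0.56 (SE 0.26; edgeR adjusted p 0.153).

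Junb (chromosome 8, 84976909 to 84978748, minus strand, 1 exon), a Jun protein that is a weaker activator than Jun, was lower in knockout than in old control livers without overlap. Young livers 1 to 3 had 44.8, 56.6 and 35.7 CPM, and old control livers 1 to 3 had 56.4, 49.0 and 58.1 CPM. Knockout livers 1 to 4 had 32.3, 41.6, 43.2 and 29.8 CPM. The young range spanned most of both old groups. Knockout minus old control was -0.57 (SE 0.18) on the log2 scale, and the other log2 fold changes were 0.25 (SE 0.19, edgeR adjusted p 0.344) with age and -0.31 (SE 0.18, edgeR adjusted p 0.234) between knockout and young.

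Jun (chromosome 4, 95049036 to 95052222, minus strand, 1 exon), the main AP-1 partner of Fos, had 33.5, 25.6 and 28.5 CPM in young livers 1 to 3. In old control livers 1 to 3 it had 22.0, 22.5 and 47.1 CPM, and in knockout livers 1 to 4 it had 16.3, 20.2, 24.6 and 21.6 CPM. Old control liver 3 alone set the old control mean apart, since the other 2 lay inside the knockout range. The log2 fold change between knockout and old control was -0.56 (SE 0.25) and became -0.10 without that liver. With age it was 0.06 (SE 0.27, edgeR adjusted p 0.882), and it turned to -0.39 without that liver. All 4 knockout livers were below all 3 young livers; the log2 fold change there was -0.50 (SE 0.25; adjusted p 0.193 by edgeR).

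Jund (chromosome 8, 70697739 to 70700616, plus strand, 1 exon), the Jun protein known for steady expression in resting cells, was the most even member. Young livers 1 to 3 had 143, 149 and 133 CPM and old control livers 1 to 3 had 117, 113 and 122 CPM. Knockout livers 1 to 4 had 123, 125, 123 and 149 CPM. Old controls lay below both other groups without overlap, but the gap to the knockout livers was only 122 against 123 CPM. Of all genes, 18.0% lay below the young livers in the old controls without overlap. A further share, 2.84% of all genes, was higher in knockout than in old control livers without overlap. The share of genes that did both was not counted. With age Jund differed by -0.27 (SE 0.12) on the log2 scale (edgeR p 0.0485 unadjusted, 0.128 adjusted), and by 0.04 when libraries were scaled by total counts alone. Knockout minus old control was 0.15 (SE 0.11).

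Ier2 (chromosome 8, 84661331 to 84662852, minus strand, 1 exon), a small nuclear protein induced with Fos, had 23.0, 18.7 and 18.7 CPM in young livers 1 to 3. It had 32.1, 26.0 and 18.7 CPM in old control livers 1 to 3 and 18.1, 25.9, 20.4 and 23.3 CPM in knockout livers 1 to 4. All 3 groups overlapped. On the log2 scale the age difference was 0.35 (SE 0.20, edgeR adjusted p 0.222). Without old control liver 3, the lowest of its group, it was 0.53 with an edgeR adjusted p of 0.033.

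The feedback genes Dusp1 and Zfp36 differed in direction between knockout and old control livers. Dusp1 (chromosome 17, 26505591 to 26508472, minus strand, 4 exons) had 44.6, 27.6 and 36.3 CPM in young livers 1 to 3. Old control livers 1 to 3 had 29.2, 34.8 and 18.0 CPM, and knockout livers 1 to 4 had 47.5, 46.7, 28.5 and 36.4 CPM. Old control liver 3 had the lowest Dusp1 of all 10 livers and also the highest Jun and Egr1. Dusp1 differed on the log2 scale by 0.54 (SE 0.25) between knockout and old control, and 0.31 without that liver. It was -0.40 (SE 0.27, edgeR adjusted p 0.288) with age.

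Zfp36 (chromosome 7, 28376784 to 28379228, minus strand, 2 exons) encodes tristetraprolin. Young livers 1 to 3 had 119.6, 112 and 82.4 CPM and old control livers 1 to 3 had 125, 106 and 107 CPM. Knockout livers 1 to 4 had 84.2, 65.7, 92.4 and 63.5 CPM. Each knockout liver lay below each old control, while the lowest young liver fell within the knockout range. On the log2 scale the difference was -0.56 (SE 0.17) between knockout and old control, between -0.66 and -0.48 over 17 alternative fits. It was -0.45 (SE 0.17) between knockout and young (edgeR p 0.0221 unadjusted, 0.0956 adjusted) and 0.11 (SE 0.18, edgeR adjusted p 0.702) with age. Junb and Zfp36, like Egr1, were thus lower in each knockout liver than in each old control, as were 3.26% of all genes. The members were picked on this contrast, so nothing is read from it.

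Btg2 (chromosome 1, 134074865 to 134079155, minus strand, 2 exons), an antiproliferative gene that p53 also induces, varied most among the knockout livers. They had 16.4, 21.8, 33.2 and 14.6 CPM, against 29.7, 27.0 and 27.6 CPM in young and 20.8, 27.4 and 24.9 CPM in old control livers. Both the highest and the lowest value of the 10 livers came from guide 2. Its log2 fold change was -0.20 (SE 0.26, edgeR adjusted p 0.586) with age and -0.18 (SE 0.24) between knockout and old control, or -0.46 without knockout liver 3.

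Myc (chromosome 15, 61985341 to 61990361, plus strand, 3 exons), a factor for growth and ribosome production, had 6.79, 5.08 and 5.57 CPM in young livers 1 to 3. It had 4.81, 10.5 and 8.25 CPM in old control livers 1 to 3 and 3.37, 9.24, 7.63 and 6.53 CPM in knockout livers 1 to 4. The 3 groups overlapped. Its log2 fold change was 0.44 (SE 0.35, edgeR adjusted p 0.388) with age and -0.23 (SE 0.33) between knockout and old control, and the second became 0.04 without old control liver 2 and -0.01 without knockout liver 1.

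**Figure D3:**
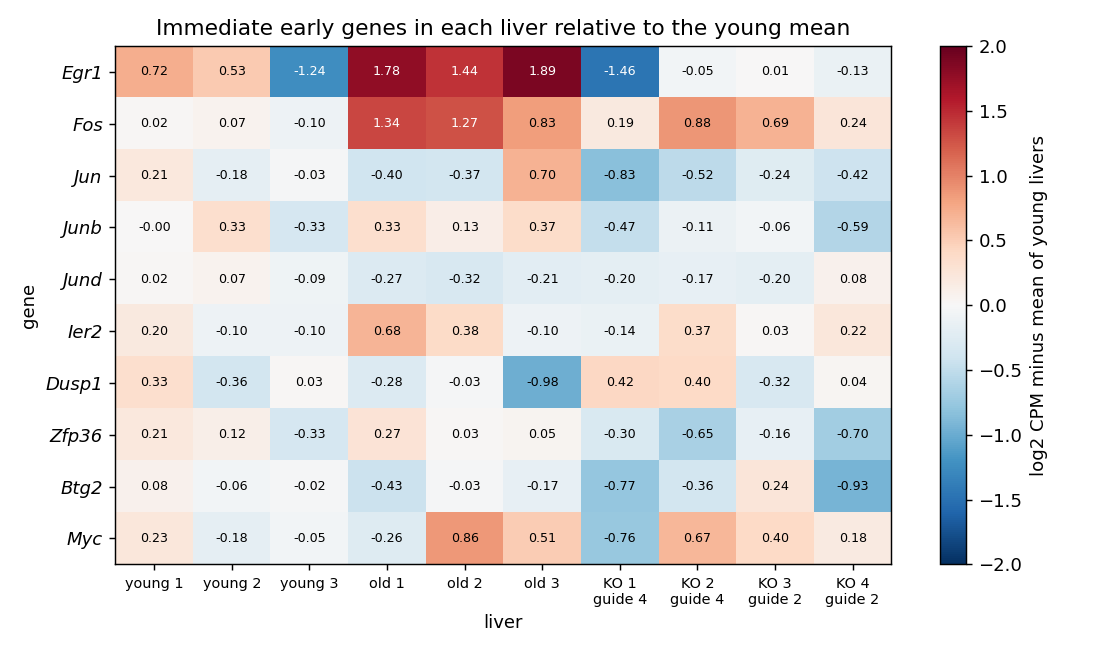
Each cell gives a gene's log2 CPM (prior count 2) in 1 liver minus the mean of the 3 young livers, with red above and blue below it. Egr1 reaches 1.44 to 1.89 in the old controls, Jun is above the young mean among the old livers only in old control liver 3 (0.70), and knockout liver 1 is low in Egr1 (-1.46), Jun (-0.83), Btg2 (-0.77) and Myc (-0.76).

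Levels per transcript length, in CPM per kilobase of the longest RefSeq-matched transcript, ordered the members. Jund was highest with a median over the 10 livers of 74.4, followed by Zfp36 with 35.5, Junb with 24.3, Dusp1 with 17.9 and Ier2 with 14.3. Btg2, Egr1 and Jun followed with 9.45, 7.44 and 7.38, then Myc with 2.85 and Fos with 1.06. The ranges of neighbours overlapped, except that Jund (68.0 to 89.3) lay above Zfp36 (22.7 to 44.7) and Jun (5.1 to 14.8) lay above Myc (1.44 to 4.5). Egr1 ranged from 2.18 to 22.6 on this scale, from the level of Myc to that of Dusp1. The highest liver exceeded the lowest 10.4-fold for Egr1, 3.12-fold for Myc, 2.9-fold for Jun and 2.83-fold for Fos, but 1.31-fold for Jund.

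With age, 1 of the 9 members other than Egr1 passed an adjusted p under 0.05, which was Fos, and 2 (Fos and Jund) had an unadjusted p under 0.05. Over all 13909 genes, 22.8% passed (14.1% higher, 8.66% lower) and 38.5% had an unadjusted p under 0.05, so the members' shares were not above the background. Fos lay above and Jund below the young livers without overlap, as did 19.7% and 18.0% of all genes in those directions. The median log2 fold change of the 9 was 0.11, against 0.04 over all genes. The old control livers of this comparison had entered the choice of the members through Egr1. Scaling by total counts alone shifted the median of all genes by 0.31 and raised the share of higher genes among those called from 62.0% to 91.6% (77.6% with upper quartile factors), and under it Junb passed as well.

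Between knockout and old control livers, 0% of the 13909 genes passed in edgeR's quasi-likelihood test. Without adjustment 916 (6.59%) had a p under 0.05, DESeq2 called 8 genes and limma voom 0. The median log2 fold change of the 10 members was -0.39, against -0.02 over all genes, with 8 members lower. Egr1, Junb and Zfp36 were below the old controls without overlap, as were 3.26% of all genes, and Jund was above without overlap, as were 2.84% of all genes. Because the members were picked on this contrast, nothing is read from these counts.

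Between old knockout and young livers none of the 9 members passed by edgeR, 1 (Zfp36) had an unadjusted p under 0.05, and DESeq2 and limma voom called 0. Over all genes, 11.6% passed (6.64% higher, 4.97% lower) and 33.3% had an unadjusted p under 0.05. Of the called genes 57.2% were higher, against 75.6% with upper quartile factors and 92.9% with total counts alone, under which Fos passed. Fos lay above and Jun below the young livers without overlap, which 21.1% and 18.9% of all genes also did in those directions. This comparison shares its young livers with the age comparison and its knockout livers with the knockout comparison. Its groups differ both in age and in the labelled target, and these cannot be told apart within it. With only these 7 livers in the fit Jun passed, with an edgeR adjusted p of 0.0309.

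**Figure D4:**
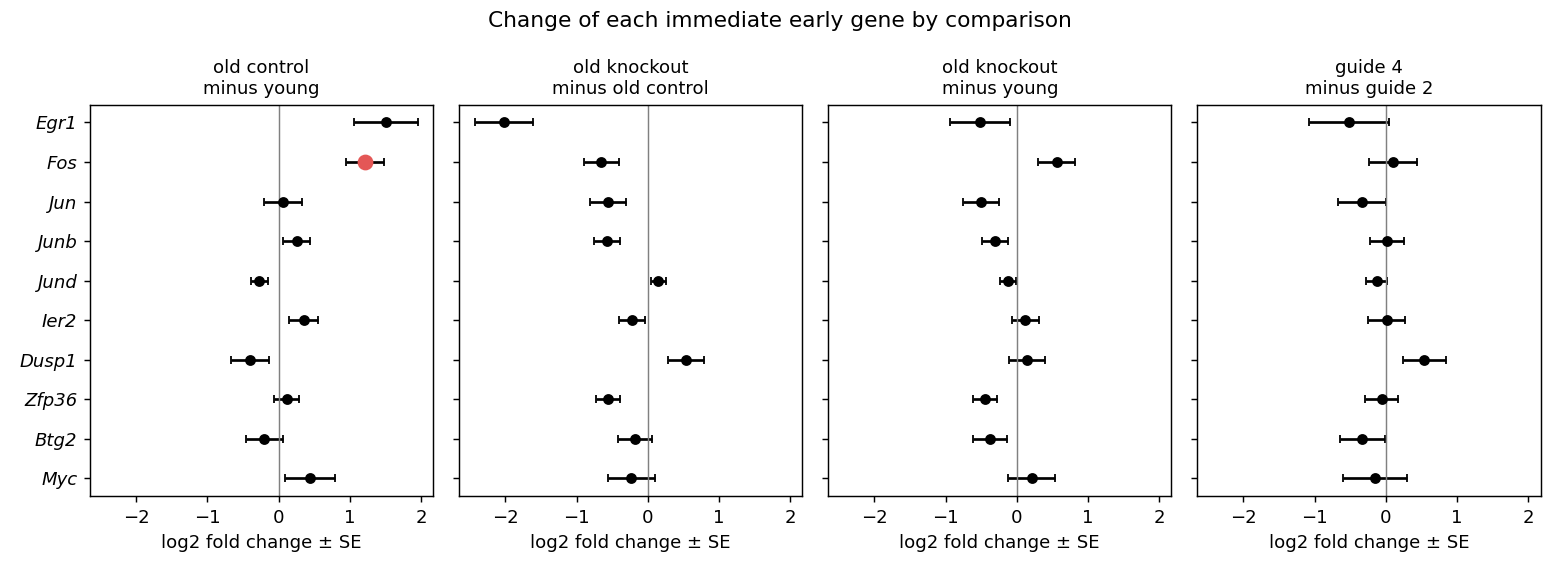
Log2 fold change of each gene (points, x axis) with its SE (bars) in the 4 comparisons; the red point marks the member with an adjusted p under 0.05 where a test was made. Fos at 1.21 is marked in the age panel, and Egr1 has the widest spread of values, from -2.02 to 1.50.

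The guides were compared within the knockout livers, a difference that was not used to pick the genes. None of the 10 members passed by edgeR (each adjusted p 0.9995, 0 with an unadjusted p under 0.05), and DESeq2 and limma voom also called 0 of them. Over all genes 0.0216% passed and 4.34% had an unadjusted p under 0.05. Dusp1 in the guide 4 livers (47.5 and 46.7 CPM) lay above that in the guide 2 livers (28.5 and 36.4 CPM), by 0.54 (SE 0.30) in log2, and 18.1% of all genes were above without overlap. Jun went the other way, with 16.3 and 20.2 CPM in the guide 4 livers below the 24.6 and 21.6 CPM of the guide 2 livers, as did 20.4% of all genes. Egr1 was 6.62 and 17.8 CPM against 18.6 and 16.9 CPM, a log2 difference of -0.52 (SE 0.56) that was 0.01 without knockout liver 1. With 2 livers per guide these intervals are wide, and a missed threshold does not show that the guides act alike.

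A wider list of 48 other immediate early genes held 44 that were tested; Egr4, Fosl1, Nr4a3 and Arc were below the filter. With age 3 were higher and 1 was lower, against 22.8% of all genes called, and the median log2 fold change was 0.14 against 0.04. Ier3, a survival gene, rose by 1.48 (SE 0.31, edgeR adjusted p 0.0113) on the log2 scale. It had 1.1, 0.923 and 0.887 CPM in young livers 1 to 3, 2.95, 3.23 and 2.0 CPM in old control livers 1 to 3, and 1.86, 2.22, 1.6 and 1.22 CPM in knockout livers 1 to 4. All old livers of either kind lay above the young livers. Nr4a1, an orphan nuclear receptor, rose by 1.43 (SE 0.34, edgeR adjusted p 0.017), from 2.02, 1.45 and 2.22 CPM to 4.32, 7.1 and 3.96 CPM. Its knockout livers had 2.96, 5.45, 3.11 and 2.62 CPM. Ier5l rose by 1.24 (SE 0.36, edgeR adjusted p 0.0339), and Cebpb, a factor of the acute phase response, fell by 0.77 (SE 0.20, edgeR adjusted p 0.0235). The count of 4 ranged from 0 without young liver 2 to 17 without old control liver 3, and it was 1 without old control liver 2.

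Between knockout and young livers 2 of the 44 passed, both lower, against 11.6% of all genes. Cebpd was lower by 0.73 (SE 0.21, edgeR adjusted p 0.0448) and the kinase gene Pim1 by 0.59 (SE 0.16, edgeR adjusted p 0.0394) on the log2 scale. Cebpd had 7.07, 9.29 and 8.3 CPM in old control livers 1 to 3. These lay within the knockout range (5.98 to 10.2 CPM) and below the young livers (11.4 to 14.0 CPM). Pim1 had 32.8, 26.9 and 25.5 CPM in old control livers 1 to 3, above the knockout livers (18.3 to 24.2 CPM). Leaving out single livers gave 0 or 1 calls, and Pim1 and Cebpd were not among them. Between guides 0 of the 44 passed by edgeR, DESeq2 or limma voom, and 1 had an unadjusted p under 0.05 by edgeR.

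Among 37 genes of the ERK, JNK, p38 and SRF inputs, 4 rose and 5 fell with age, or 24.3% against 22.8% of all genes. Mapk3, which encodes ERK1, rose by 0.51 (SE 0.13, edgeR adjusted p 0.0201), and Elk3, a partner of serum response factor, rose from 5.67 to 8.61 CPM in young livers to 12.3 to 17.8 CPM in old controls (edgeR adjusted p 0.0116). Rps6ka1, a kinase that ERK activates, rose by 0.95 and Map2k6 by 1.30. Both kinases that activate ERK fell: Map2k1 fell by 0.46 (SE 0.14, edgeR adjusted p 0.0385) and Map2k2 fell by 0.34 (SE 0.10, edgeR adjusted p 0.0395). Crem, a CRE-binding factor, fell by 1.01, Map2k3 by 0.68 and Map2k4 by 0.63. Of 17 MAPK feedback inhibitors, Spry4 rose by 1.16 (SE 0.34, edgeR adjusted p 0.0325) and Dusp7 rose by 0.81 (SE 0.25, edgeR adjusted p 0.0412), and 0 fell; this is 11.8% against 22.8% of all genes.

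Between knockout and young livers, 3 of the 37 inputs were higher and 4 lower, or 18.9% against 11.6% of all genes. Egfr, the epidermal growth factor receptor, was lower by 1.62 (SE 0.39, edgeR adjusted p 0.0299) in knockout livers. It had 194 ± 50.9 CPM in knockout (SD, n = 4) and 597 ± 117 CPM in young livers (SD, n = 3). Old control livers 1 to 3 had 136, 178 and 514 CPM, and the knockout range was 159 to 270.0 CPM. None of the 17 feedback inhibitors passed between knockout and young livers by edgeR.

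Of 20 partners of AP-1 and Myc, 3 rose and 1 fell with age, 4 of 20 in all, a share near the 22.8% of all genes. Batf3 and Batf, AP-1 factors of immune cells, rose by 2.30 (SE 0.46, edgeR adjusted p 0.0103) and 2.23 (SE 0.40, edgeR adjusted p 0.00877). Maf rose by 1.11 and Mlx fell by 0.61. Batf had 0.245, 0.462 and 0.253 CPM in young livers 1 to 3, between 1.03 and 2.14 CPM in old control livers and between 1.22 and 1.61 CPM in knockout livers. Sums of 5 T cell markers were 3.04 to 3.89 CPM in young, 3.39 to 42.0 CPM in old control and 7.87 to 21.1 CPM in knockout livers. The 42.0 CPM came from old control liver 2 alone, with 7.66 and 3.39 CPM in old control livers 1 and 3. The part of such cells in the Batf levels was not tested. Batf3 and Batf also passed between knockout and young livers, at 2.31 and 2.16 on the log2 scale.

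Of 14 Myc targets, 6 fell and 0 rose with age, while 8.66% of all genes fell, and Myc itself did not pass. Nop58, a nucleolar protein, fell by 1.49 (SE 0.27, edgeR adjusted p 0.00908) and Odc1, which starts polyamine synthesis, by 0.96 (SE 0.24, edgeR adjusted p 0.0203). Between knockout and young livers 8 of the 14 fell and 0 rose, while 4.97% of all genes fell, including Nop58 by 1.43 and Odc1 by 1.01. Of 12 p53 targets, a set that is relevant to Btg2, 3 rose and 2 fell with age, or 41.7% against 22.8% of all genes. Cdkn1a fell by 1.97 (SE 0.28, edgeR adjusted p 0.00667) and Phlda3 rose by 1.07 (SE 0.33, edgeR adjusted p 0.0396).

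Lists of heat shock, glucocorticoid-responsive and clock genes also differed between young and old livers. With age 22.8% of all genes were called and 8.66% fell. All 12 heat shock genes fell, led by Hspa1b at 2.90 (SE 0.32, edgeR adjusted p 0.00648), and their summed level was 5266 to 6451 CPM in young, 2040.4 to 3409 CPM in old control and 2192 to 3633 CPM in knockout livers. Of 12 glucocorticoid-responsive genes 5 (41.7%) fell and 0 rose, among them Fkbp5 by 1.51 (SE 0.25, edgeR adjusted p 0.00798). Another of them was Cdkn1a, which was also counted among the p53 targets. The glucocorticoid list also shares Sgk1, Per1 and Errfi1 with the wider immediate early list, and Per1 with the clock list. Counts of these lists are therefore not independent. Of 16 clock genes 2 rose and 3 fell, or 31.2%, with Dbp higher by 2.18 (SE 0.59, edgeR adjusted p 0.0263) and Arntl lower by 0.95 (SE 0.27, edgeR adjusted p 0.0318). The labels give no time of day or order of collection, and the part of these in the age values of the members was not tested. Old control and knockout livers overlapped in the heat shock, glucocorticoid and clock sums (552 to 830.0 and 741 to 824 CPM for the clock genes).

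The genes outside the 10 members whose log2 CPM followed Egr1 most closely over the 10 livers were, in order, Tmprss2, Dnaic1, Arhgap17, Gas7, Maml3, Rhoq, Map4k4, Aldoc, Ldb2 and 4930413G21Rik, with Pearson's r of 0.87 to 0.81. They are the upper end of 13908 coefficients around a median of 0.01, all from the same libraries, and are given as a description. Tmprss2, a membrane protease, had 7.17, 5.65 and 6.34 CPM in old control livers 1 to 3, a range that overlapped the young livers (4.05 to 6.73 CPM). Dnaic1 had at most 0.688 CPM. Among the other members Junb had the highest r with Egr1 (0.83, rank 6 of 13908), followed by Fos with 0.68, Zfp36 with 0.64 and Ier2 with 0.51. Dusp1 and Jund were negative, at -0.62 and -0.29. With each group's mean removed, r with Egr1 was 0.68 for Junb, 0.51 for Jund, 0.45 for Myc and 0.40 for Fos. On this measure Jun had 0.37, Zfp36 0.36, Ier2 0.35, Btg2 0.28 and Dusp1 -0.30.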

How the data were processed

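Polyadenylated RNA of 10 whole-liver samples was made into libraries with a Watchmaker kit and read from both ends (75 bases each) on an AVITI sequencer, per the labels' protocols. The deposited table holds raw counts made by the authors, in whole numbers for each gene symbol and liver. The submitters' processing notes name FastQC 0.11.8, Trim Galore 0.4.4, STAR 2.5.3a, HOMER and the build mm10; what each tool did, the gene annotation and whether strand was used are not given in the sources used here.

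Counts were tested with edgeR 4.0.16 in R 4.3.3 (quasi-likelihood, trimmed mean of M values (TMM) factors, filterByExpr with a minimum count of 10 and total of 15), 1 coefficient per group over all 10 libraries, or 4 coefficients for the guide comparison. P-values were adjusted by Benjamini-Hochberg over 13909 genes, with a threshold of 0.05. The SE is the absolute log2 fold change divided by the root of F. CPM used total counts times TMM factors. Per-length levels used GENCODE M21 transcripts matched to RefSeq, and gene positions are RefSeq's on GRCm38.p6. The test was also run on counts simulated from edgeR's fitted spread of each gene, and the outcome is not given here. Such counts hold no outlying livers shared across genes, so that run cannot show how the test handles them. Alternatives used DESeq2 1.42.0, limma 3.58.1 voom, other scalings, no filter, fewer libraries and single guides.

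The 10 members and the lists were chosen with earlier results of these data known. The rule for naming took all members, Cd44, at most 6 genes with an adjusted p under 0.05 per list and comparison by size (Mapk3, Map2k1 and Map2k2 fall outside it and were chosen after their values were seen), and the 10 genes most like Egr1. Of 271 list entries, 2 matched no symbol.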

Additional observations from a re-analysis of the deposited data

Results flagged for a closer look

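Among 17 genes examined in the 4 knockout livers, 3 had 1 liver far from the other 3. The gap was above Dixon's critical value of 0.829 of the group's range, which chance passes for about 1 in 20 independent genes. These genes share the same livers of both guides, and Egr1 in them was used for the pick, so the flags are a description only. Egr1 was lowest in knockout liver 1, with 6.62 CPM against 16.9 to 18.6 CPM (0.855 of the range). That liver also had the lowest Jun and Myc CPM of the group. Jund was highest in knockout liver 4, with 149 CPM against 123 to 125 CPM (0.918). Nr4a1 was highest in knockout liver 2, with 5.45 CPM against 2.62 to 3.11 CPM (0.829, just above the critical value before rounding).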

How the results depend on the processing

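No paired analysis was possible because libraries carry only their own names, without numbers shared across groups. The Egr1 difference between knockout and old control kept its direction in 17 of 17 alternative fits. Of 240 member values without 1 liver, 17 changed sign, 12 of them between guides, where each group holds 2 livers; of 360 in other fits, 6 changed sign. Of the other named genes, none changed sign in 504 fits without 1 liver or in 696 other fits, but 229 and 114 of these values lost their call. The cause of the changes below was not tested.

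With age, the members called numbered 1, and 2 with total counts only (Junb and Fos); leaving out single livers gave 0 to 2 (0 without young liver 2, 2 without old control liver 3). The wider list had 4, against 8 with DESeq2, 8 with upper quartile factors, 12 with total counts only and 0 to 17 without 1 liver. All genes called were 3172, against 1138 with only the groups compared and 448 to 5317 without 1 liver. Between knockout and young livers, 0 members were called, against 1 with total counts only (Fos) and 1 with only the groups compared (Jun). The wider list had 2, against 6 with DESeq2, 0 with limma voom, 10 with total counts only, 15 with only the groups compared, 0 with guide 2 livers alone, 0 with guide 4 livers alone and 0 to 1 without 1 liver. All genes called were 1614, against 2803, 969, 3585, 4265, 677 and 36 in the same order, and 57 to 1650 without 1 liver. Between knockout and old control, all genes called were 0, against 8 with DESeq2, 3 with guide 2 livers alone and 0 to 3 without 1 liver (3 without old control liver 1). Between guides 3 were called, against 73 with DESeq2, 10 with no filter and 32 with only the groups compared, and 0 in each fit without 1 liver. Of the 10 genes most like Egr1, 2 were shared with the 10 by Spearman's rho and 3 without old control liver 3.

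Log2 fold changes that changed sign with age were those of Jun (-0.02 with limma voom; -0.39 to 0.25 without 1 liver), Zfp36 (-0.04 to 0.21 without 1 liver), Jund (0.04) and Btg2 (0.10), both with total counts only. Between knockout and young they were those of Junb (0.02) and Jund (0.20) with total counts only, and Dusp1 (-0.16 with guide 2 livers alone; -0.02 to 0.32 without 1 liver). Between knockout and old control it was that of Myc (0.04 without old control liver 2; -0.48 to 0.04 without 1 liver). Between guides, leaving out 1 liver gave -1.42 to 0.01 for Egr1, -0.31 to 0.41 for Fos, -0.22 to 0.31 for Junb, -0.26 to 0.01 for Jund, -0.27 to 0.24 for Ier2, -0.30 to 0.24 for Zfp36, -0.80 to 0.39 for Btg2 and -1.07 to 0.38 for Myc. Counting limits Fos and Myc most, with as few as 23 and 58 reads in a liver.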
